A study of Mus musculus with 18 samples.

Results

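The 9 genes described here, Cps1, Otc, Tdo2, Tat, Hpd, Gamt, Gatm, Oat and Bhmt, encode hepatic enzymes of amino acid breakdown, creatine synthesis and the urea cycle. They were chosen by symbol, and all 9 were found among the 21441 genes of the liver expression table and passed the filter on low values. RNA-seq libraries came from whole liver of wild type male C57BL/6 mice in 3 groups of 3 libraries, drawn from groups of 6 mice. Control mice received vehicle by gavage and an injection of saline. LPS mice received an intraperitoneal injection of lipopolysaccharide (LPS) at 10 mg/kg, the bacterial endotoxin used to set off acute systemic inflammation. LPS+MIC-1 mice were gavaged for 3 days with moringa isothiocyanate-1 (MIC-1) at 80 mg/kg in 10% DMSO and then received the same LPS injection. Livers were taken at 16 h, and no group received MIC-1 without LPS.

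The liver is the main site at which surplus amino acids lose their nitrogen. Tyrosine, tryptophan and ornithine are broken down in the hepatocyte, the freed ammonia is turned into urea by a chain of enzymes that starts in the mitochondrion, and creatine is made there from guanidinoacetate. Many of these enzymes are controlled at the level of their messenger RNA by glucocorticoids, glucagon and feeding, and hepatic amino acid handling is known to shift in the acute phase response.

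Values are FPKM (fragments per kilobase of transcript, scaled by a factor for each library), so levels can be set against each other between genes. Log2FC is the difference between group means of log2(FPKM + 0.5), tested with limma over the 10147 genes whose mean was above 1 FPKM, and a gene is said to have risen or fallen where its Benjamini-Hochberg adjusted p was below 0.05. The libraries carry no animal numbers in the expression table and are numbered 1 to 3 within a group by their place in it. Before any result is read, the likeness of libraries has to be stated. Libraries 1 and 3 of the LPS group correlated at r = 0.979 over all tested genes, whereas library 2 correlated with them at 0.889 and 0.893. The LPS+MIC-1 group showed the same arrangement, with 0.979 between libraries 1 and 3 against 0.935 and 0.932 with library 2. In Control, libraries 2 and 3 were the closest pair (0.930), with library 1 at 0.906 and 0.887. Across groups, LPS library 2 was nearest to LPS+MIC-1 library 2 (0.947), and LPS libraries 1 and 3 were nearer to LPS+MIC-1 libraries 1 and 3 (0.945 to 0.955) than to LPS library 2. Within the close pairs of LPS and LPS+MIC-1 the squared difference was 6.71 and 2.28 times the estimated counting variance. For the pairs with library 2 it was 52.4 to 86.0. Control was arranged alike, with 8.46 for libraries 2 and 3, beside 58.7 and 72.9 for the pairs with library 1. These values do not show whether a close pair came from 1 mouse. All libraries were counted as separate samples because they are described as coming from separate mice. Values with libraries 1 and 3 of the injected groups averaged are given where they matter. Depth, estimated from the steps between low values, was about 3100000 to 13700000 reads per library.

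Hepatocyte markers were abundant in every library, with 13740 to 35991 FPKM for Alb (albumin) in the 9 libraries. The 6 hepatocyte markers summed to 45550 to 95221 FPKM in Control, 41115 to 51595 in LPS and 40233 to 53032 in LPS+MIC-1, the highest sum being that of Control library 1. None of the 6 passed the test in LPS against Control with limma, where 2 had an unadjusted p below 0.05. Neutrophil markers summed to 35.1 to 51.4 FPKM in Control, 309 to 385 in LPS and 177 to 428 in LPS+MIC-1, and of the 4 tested, 3 rose and 1 fell. Csf3r, the granulocyte growth factor receptor, was at or near 0 throughout, with a highest value of 0.487 FPKM. Among organs that also express some of these genes, the kidney markers Umod and Slc12a1 were at 0 in every library, while Kap ranged from 2.77 to 39.5 FPKM in Control and from 0 to 1.70 after LPS. In whole tissue, fewer hepatocytes and less RNA per hepatocyte cannot be told apart.

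In Control liver the levels of the 9 messages differed widely. Hpd was highest, at 2362 ± 145 FPKM (SD, n = 3), which placed it 35th among all genes, and Bhmt came next at 1120.2 ± 641. The ranges of Hpd and Bhmt did not overlap, nor did those of Bhmt and Tat. Tat (496 ± 78.5) and Gamt (460.1 ± 27.3) were not separated by their spread. Oat (291 ± 18.5), Cps1 (257 ± 37.9), Otc (223 ± 29.1) and Tdo2 (191 ± 28.7) followed, each overlapping its neighbour. Gatm stood far below at 2.98 ± 0.589 FPKM, rank 7184, which by the depth estimate is only 8.29 to 23.8 reads per liver library, so that its counting error is large.

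**Figure D1:**
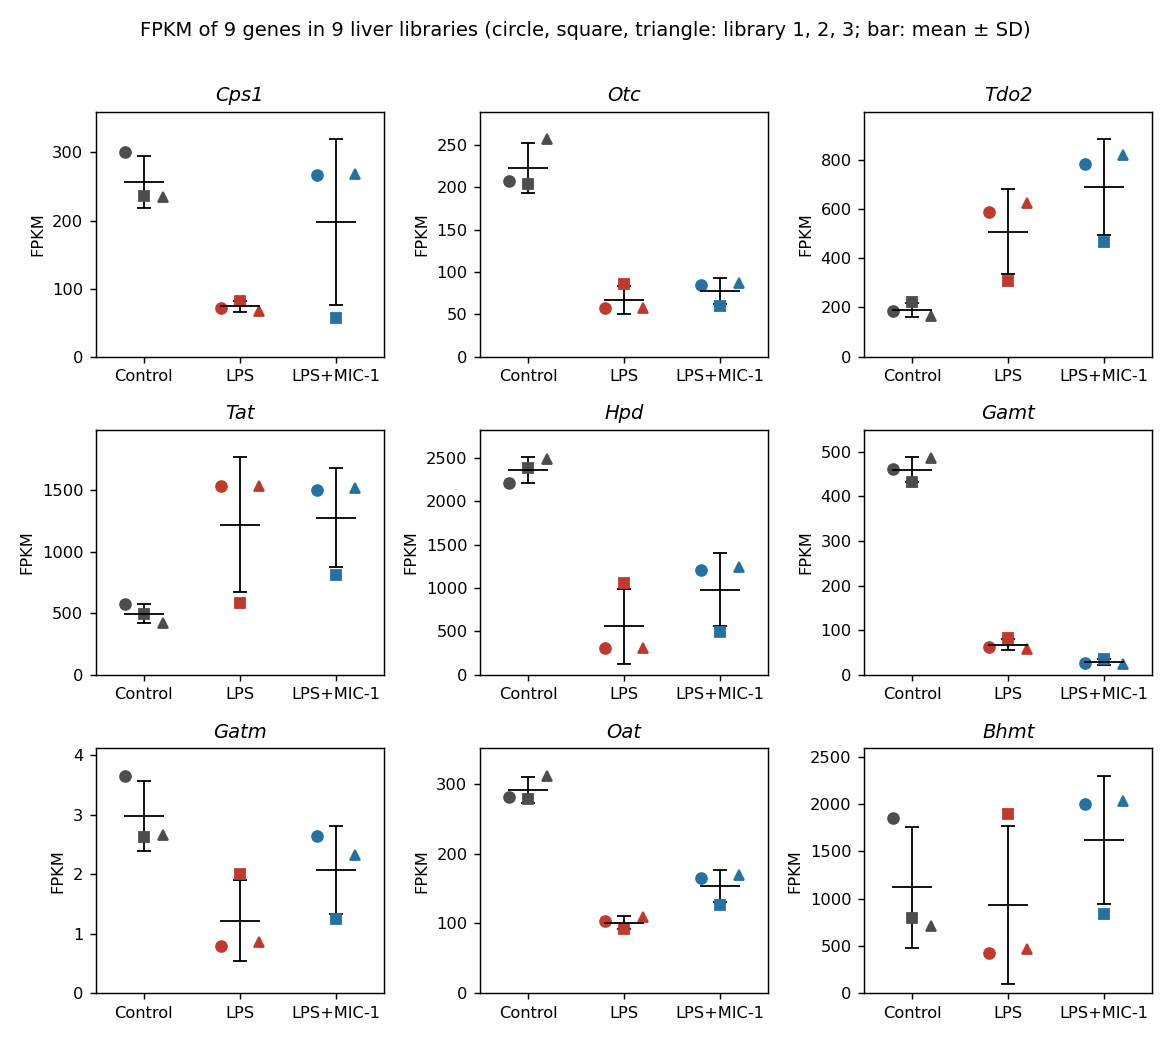
FPKM (linear axis from 0) of each gene in the 9 liver libraries, with circles, squares and triangles for libraries 1, 2 and 3 and bars for the mean ± SD of each group. Gamt falls from 432 to 486 FPKM in Control to at most 82.2 in every LPS-injected liver, Tdo2 lies above all controls in every LPS-injected liver, and the squares of LPS and LPS+MIC-1 stand apart from the other markers in most panels.

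After LPS, 7 of the 9 genes changed, 6 downwards and 1 upwards, against 34.7% of all tested genes. The background was 15.5% for genes that fell and 19.2% for genes that rose. Of all genes that changed 55.3% rose, and 31.0% did when every library was rescaled to the same sum, which moved the median of all genes to -0.18. The count of 7 became 4 without Control library 3, 4 without LPS library 1 and 3 without LPS library 3. The calls over all genes fell as well, from 3520 to 1935, 1700 and 1409 in the same fits. The median Log2FC of the 9 was -1.52, beside 0.15 over all tested genes. Ranges of the LPS and Control libraries did not overlap for 8 of 9, beside 45% of all tested genes. By the looser rule of an unadjusted p below 0.05 and an absolute Log2FC above 1, 8 of the 9 were past the threshold, beside 28.4% of all tested genes. Gamt, Otc, Hpd, Cps1, Oat and Gatm fell, Tdo2 rose, and Tat and Bhmt did not pass the test.

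The promoters of 4 of these genes are shown because Gamt, Otc and Oat fell in every alternative analysis that was run, and Tdo2 was the 1 gene that rose. Sequences are RefSeq promoter windows, 250 bases before to 50 bases after the annotated start, taken from the GRCm38.p6 table and each found once and without mismatch in NCBIM37 (mm9), the build of the coordinates given here. Windows were found for 8 of the 9 genes, all but Cps1. They lie at chr10:79723708-79724007 (minus strand) for Gamt, chrX:9829181-9829480 (plus strand) for Otc, chr7:139768032-139768331 (minus strand) for Oat and chr3:81779601-81779900 (minus strand) for Tdo2. Capitals mark matches, on either strand, to the TATA box (TATAAA), the CCAAT box, the GC box (GGGCGG) or the core of nuclear receptor sites (AGGTCA), whose letters do not overlap one another's matches here.
Gamt promoter: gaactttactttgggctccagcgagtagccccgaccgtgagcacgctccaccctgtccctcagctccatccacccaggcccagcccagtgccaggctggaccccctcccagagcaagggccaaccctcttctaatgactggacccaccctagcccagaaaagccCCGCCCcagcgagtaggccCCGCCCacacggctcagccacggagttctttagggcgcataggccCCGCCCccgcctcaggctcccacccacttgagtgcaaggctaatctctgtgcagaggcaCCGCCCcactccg
Otc promoter: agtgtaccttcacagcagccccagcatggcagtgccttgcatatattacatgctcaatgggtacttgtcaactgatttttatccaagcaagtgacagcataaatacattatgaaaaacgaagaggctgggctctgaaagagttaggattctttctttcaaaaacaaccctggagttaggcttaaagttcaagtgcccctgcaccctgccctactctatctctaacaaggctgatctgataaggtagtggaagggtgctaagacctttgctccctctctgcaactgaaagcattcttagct
Oat promoter: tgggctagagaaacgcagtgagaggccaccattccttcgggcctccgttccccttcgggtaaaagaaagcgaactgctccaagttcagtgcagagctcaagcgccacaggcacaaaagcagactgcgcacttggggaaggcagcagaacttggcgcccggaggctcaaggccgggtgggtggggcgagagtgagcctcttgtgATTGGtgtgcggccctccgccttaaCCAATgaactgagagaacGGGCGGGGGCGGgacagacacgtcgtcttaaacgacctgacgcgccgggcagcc
Tdo2 promoter: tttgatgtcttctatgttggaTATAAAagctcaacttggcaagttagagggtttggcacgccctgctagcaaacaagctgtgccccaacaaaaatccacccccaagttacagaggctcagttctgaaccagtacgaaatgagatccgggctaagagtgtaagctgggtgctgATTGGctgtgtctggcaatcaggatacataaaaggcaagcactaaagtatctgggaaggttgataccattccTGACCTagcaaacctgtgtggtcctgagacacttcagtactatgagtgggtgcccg
The 3 genes that fell do not share a pattern of these letters. Gamt held 4 GC boxes, at -86, -67, -22 and 38 from the start, and no CCAAT box. Oat held 2 GC boxes and 2 CCAAT boxes, and Otc held none of the 4 motifs. Tdo2 held a CCAAT box at -78, a nuclear receptor motif at -6 and TATAAA at -229, far from the usual place of a TATA box. These Tdo2 positions count from the RefSeq start. The GENCODE span of the gene reaches to chr3:81780124, upstream of the whole window, so positions would differ from that start. Over the 8 windows the CCAAT box was found in 5, the GC box in 3, the nuclear receptor motif in 3 and TATAAA in 1, whereas of all 32544 windows 37.36%, 35.88%, 16.25% and 13.57% held them. The letters TTGCNNAA (a C/EBP motif), TTCNNNGAA (a STAT motif) and CAAAGTCCA (an HNF4 motif) were in none of the 8, beside 10.82%, 8.33% and 0.48% of all windows. The motifs were chosen after the expression values were known.

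Cps1 (chr1:67169600-67277833, plus strand, protein coding) encodes carbamoyl phosphate synthetase 1, the mitochondrial enzyme that brings ammonia into the urea cycle. It stood at 301, 236 and 234 FPKM in the 3 Control libraries, at 71.8, 82.2 and 67.5 in LPS, and at 267, 57.1 and 268 in LPS+MIC-1. All LPS livers were far below all controls, whereas LPS+MIC-1 was split, with libraries 1 and 3 inside the control range and library 2 below every LPS library. Cps1 fell in LPS by 1.79 on the log2 scale (SE 0.53, limma adjusted p = 0.0331), a drop from 257 to 73.8 FPKM in the group means. The call was lost, with Log2FC between -1.85 and -1.67, when any 1 of the 3 controls, LPS library 1 or LPS library 3 was left out.

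Otc (chrX:9829431-9898150, plus strand) encodes ornithine transcarbamylase, which joins carbamoyl phosphate to ornithine in the step after Cps1. Its values were 208, 204 and 256 FPKM in Control, 58.0, 86.3 and 57.3 in LPS, and 84.3, 59.5 and 87.6 in LPS+MIC-1. Every LPS-injected liver, with or without MIC-1, was below every control, and the ranges of LPS and LPS+MIC-1 overlapped. The fall in LPS was -1.74 (SE 0.24, limma adjusted p = 0.00257). Otc passed the test in all 9 fits that left out 1 library and in all 19 alternatives.

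Gamt (chr10:79720896-79723757, minus strand) encodes guanidinoacetate methyltransferase, which completes creatine synthesis with a methyl group from S-adenosylmethionine. It was measured at 463, 432 and 486 FPKM in Control, 63.3, 82.2 and 57.8 in LPS, and 26.6, 36.4 and 23.9 in LPS+MIC-1. The 3 groups formed 3 separate bands, in descending order, with no overlap between any of them. In LPS it was 6.79-fold lower than in Control by group means (Log2FC -2.77, SE 0.21, limma adjusted p = 0.00029), the strongest fall among the 9 genes. Leave-one-out values ranged from -2.91 to -2.66, and the call held in all 19 alternatives.

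Gatm (chr2:122420203-122437039, minus strand) encodes glycine amidinotransferase, the enzyme upstream of Gamt that makes guanidinoacetate, mostly in kidney and pancreas. It was low in all livers, at 3.66, 2.63 and 2.65 FPKM in Control, 0.785, 2.01 and 0.866 in LPS, and 2.64, 1.24 and 2.33 in LPS+MIC-1. LPS library 2 came close to the controls, and the other two LPS libraries were well below. Gatm fell in LPS (Log2FC -1.07, SE 0.34, limma adjusted p = 0.039), but the call held in only 2 of 9 leave-one-out fits, those without LPS library 2 or without LPS+MIC-1 library 2. Kap, the kidney marker given above, also differed between Control and LPS, and its part in this result was not tested. The pancreas marker Cela1 had 8.67 to 14.4 FPKM in Control and 3.87 to 9.93 in LPS, while 4 of the 7 pancreas markers were at 0 in every library.

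Oat (chr7:139749158-139768081, minus strand) encodes ornithine aminotransferase, which draws ornithine off towards glutamate and is concentrated in hepatocytes around the central vein. Its 3 groups read 282, 279 and 312 FPKM in Control, 103, 91.5 and 109 in LPS, and 165, 127 and 169 in LPS+MIC-1. As with Gamt the bands did not overlap, but here LPS+MIC-1 lay between LPS and Control. Oat fell in LPS by 1.52 on the log2 scale (SE 0.18, limma adjusted p = 0.00135), and the call held in all 19 alternatives. Of the 7 pericentral markers, Oat included, 3 (42.9%) fell in LPS and none rose, whereas 15.5% of all tested genes fell. The summed level of the 7 was 2019 to 3864 FPKM in Control and 1248 to 1647 in LPS. Oat was itself 1 of the 3 and part of the sum, so neither is separate from it. Mean FPKM went from 292 to 82.0 for Glul and from 700 to 144 for Cyp1a2, without overlap. For Cyp2e1 (1209 to 1031) and Rhbg (3.25 to 3.73) the ranges overlapped. The 6 periportal markers, of hepatocytes around the portal vein, also had a lower sum in LPS. It was 1382 to 1833 FPKM in Control and 1019 to 1304 in LPS, though none of the 6 passed the test. The members differed, with mean FPKM lower for Cyp2f2 (494 to 155) and Sds (367 to 252). For Pck1 (554 to 595) and Hal (82.9 to 85.6) it was slightly higher. Whether a change in the pericentral zone had a part in the fall of Oat was not tested.

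Hpd (chr5:123621816-123632734, minus strand) encodes 4-hydroxyphenylpyruvate dioxygenase, the enzyme of tyrosine breakdown after Tat. It was at 2207, 2385 and 2493 FPKM in Control, 315, 1055 and 307 in LPS, and 1210.1, 499.6 and 1242 in LPS+MIC-1. All injected livers were below all controls. LPS library 2 was the highest of its group and LPS+MIC-1 library 2 the lowest of its own. Hpd fell in LPS (Log2FC -2.33, SE 0.53, limma adjusted p = 0.0127), and without LPS library 3 the Log2FC was -2.03 and the call was lost (adjusted p = 0.0554).

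Tat (chr8:112514337-112523703, plus strand) encodes tyrosine aminotransferase, which opens tyrosine breakdown and is a classical glucocorticoid-induced liver enzyme. Values were 574, 497 and 417 FPKM in Control, 1535, 584 and 1533 in LPS, and 1499, 810.1 and 1520.1 in LPS+MIC-1. LPS libraries 1 and 3 were far above the controls, while library 2 was barely above the highest of them. The Log2FC in LPS was 1.18 (SE 0.42) with a limma adjusted p of 0.0583, which misses the threshold. Without LPS library 2 it was 1.64 with an adjusted p of 0.0051. So Tat and Hpd, neighbouring steps of 1 pathway, had Log2FC of opposite sign in LPS.

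Tdo2 (chr3:81761012-81780124, minus strand) encodes tryptophan 2,3-dioxygenase, the hepatic entry into the kynurenine pathway and another glucocorticoid-responsive enzyme. The controls read 184, 223 and 167 FPKM, the LPS libraries 589, 308 and 626, and the LPS+MIC-1 libraries 781, 465 and 818. No injected liver was as low as a control, and library 2 was the lowest in both injected groups. Tdo2 rose in LPS by 1.35 on the log2 scale (SE 0.33, limma adjusted p = 0.0174), from 191 to 508 FPKM in the group means. The call was lost without Control library 3 (1.26), LPS library 1 (1.21) or LPS library 3 (1.16).

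Bhmt (chr13:94386846-94407916, minus strand) encodes betaine-homocysteine methyltransferase, which remakes methionine from homocysteine. It varied more within groups than between them, with 1858, 791 and 711 FPKM in Control, 423, 1897 and 470.2 in LPS, and 2002, 834 and 2030.4 in LPS+MIC-1. The high libraries were Control 1, LPS 2 and LPS+MIC-1 1 and 3, so all 3 groups overlapped. The Log2FC in LPS was -0.49, with a 95% interval from -1.98 to 1.00, and without LPS library 2 it was -1.18 with an adjusted p of 0.1002. Up to 107 bases of its exons overlap Gm15622 on the opposite strand in the GENCODE annotation, and the other 8 genes share no exonic base with another annotated gene.

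**Figure D2:**
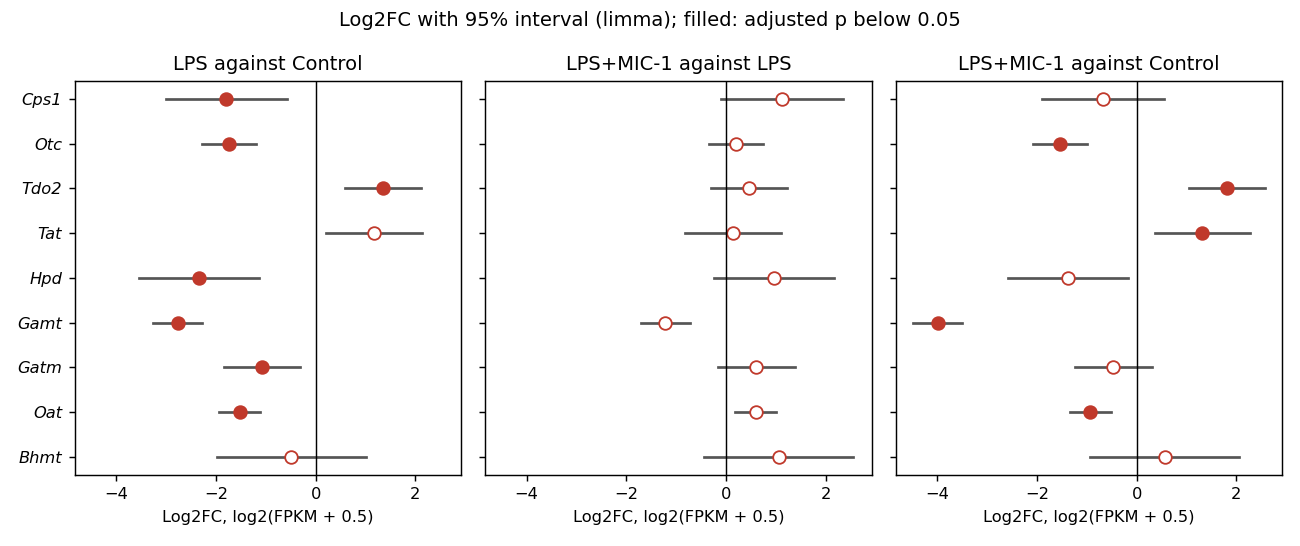
Log2FC on the log2(FPKM + 0.5) scale with its 95% interval from limma for the 9 genes in the 3 comparisons, filled where the adjusted p was below 0.05. Gamt is the leftmost gene in each panel, at -2.77, -1.22 and -3.99, and no gene is filled in the comparison of LPS+MIC-1 with LPS.

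The comparison of LPS+MIC-1 with LPS asked whether MIC-1 pretreatment altered the response, and it used the same LPS libraries as the comparison above. The likeness of libraries by their number across the 2 groups, given above, bears on every value in it. None of the 9 genes passed the test with limma, and neither did any of the 10147 genes tested (0%). At an unadjusted p below 0.05 there were 2 of the 9, Gamt and Oat, beside 364 of all tested genes (3.59%). By the looser rule above 1 of the 9, Gamt, was past the threshold, beside 0.986% of all tested genes. Gamt and Oat were the only ones whose libraries did not overlap between the groups, beside 9.75% of all tested genes. The median Log2FC of the 9 was 0.59, beside -0.01 over all genes.

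Gamt was lower still with MIC-1, 2.34-fold by group means (Log2FC -1.22, 95% interval -1.71 to -0.73, limma adjusted p = 0.732), and all 3 LPS+MIC-1 libraries were below all 3 LPS libraries. Oat was higher, 154 against 101 FPKM (Log2FC 0.59, 95% interval 0.18 to 1.00, adjusted p = 0.997), again with every library on the same side. The exact permutation test on 3 against 3 libraries cannot give a p below 0.1, which is what it gave for both.

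For Cps1 and Hpd the group means hide a split. Cps1 had a Log2FC of 1.12 (95% interval -0.10 to 2.34) and Hpd of 0.96 (-0.24 to 2.16), with adjusted p = 0.997 for each. Libraries 1 and 3 with MIC-1 stood at 267 and 268 FPKM for Cps1, beside 71.8 and 67.5 in LPS libraries 1 and 3, but library 2 with MIC-1 stood at 57.1, beside 82.2 in LPS library 2. Hpd followed the same pattern, with 1210.1 and 1242 beside 315 and 307, and 499.6 beside 1055. When library 2 was left out of both groups, a choice made after the values were seen, 4 of the 9 genes passed the test and 374 of all genes did. They were Cps1 (Log2FC 1.94, adjusted p = 0.0104), Hpd (1.98, adjusted p = 0.00951), Gamt (-1.25, adjusted p = 0.018) and Gatm (1.17, adjusted p = 0.0475). When instead the close libraries 1 and 3 were averaged to 1 sample, Cps1 was at 0.71 and Hpd at 0.45 and none of the 9 passed.

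Otc (Log2FC 0.20, 95% interval -0.34 to 0.74), Tdo2 (0.46, -0.30 to 1.22), Tat (0.14, -0.82 to 1.10), Gatm (0.60, -0.17 to 1.38) and Bhmt (1.05, -0.44 to 2.55) had intervals that include 0 and leave room for changes of considerable size. The sign for Tat turned to -0.32 without LPS library 2. Neutrophil markers of the LPS+MIC-1 group split by the same libraries as Cps1 but in the opposite direction. Their sums were 177 and 191 FPKM in libraries 1 and 3 and 428 in library 2. Other lists also set library 2 apart. In libraries 1, 2 and 3, periportal sums were 2044, 816 and 2082, and Kupffer cell and macrophage sums 92.9, 50.9 and 96.1. Stellate cell sums were 72.3, 129 and 70.9, and erythrocyte sums 719, 998 and 725. Endothelial sums (47.4, 44.0 and 42.6) and cholangiocyte sums (90.4, 83.8 and 75.6) did not. The part of these cells in the values was not tested.

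**Figure D3:**
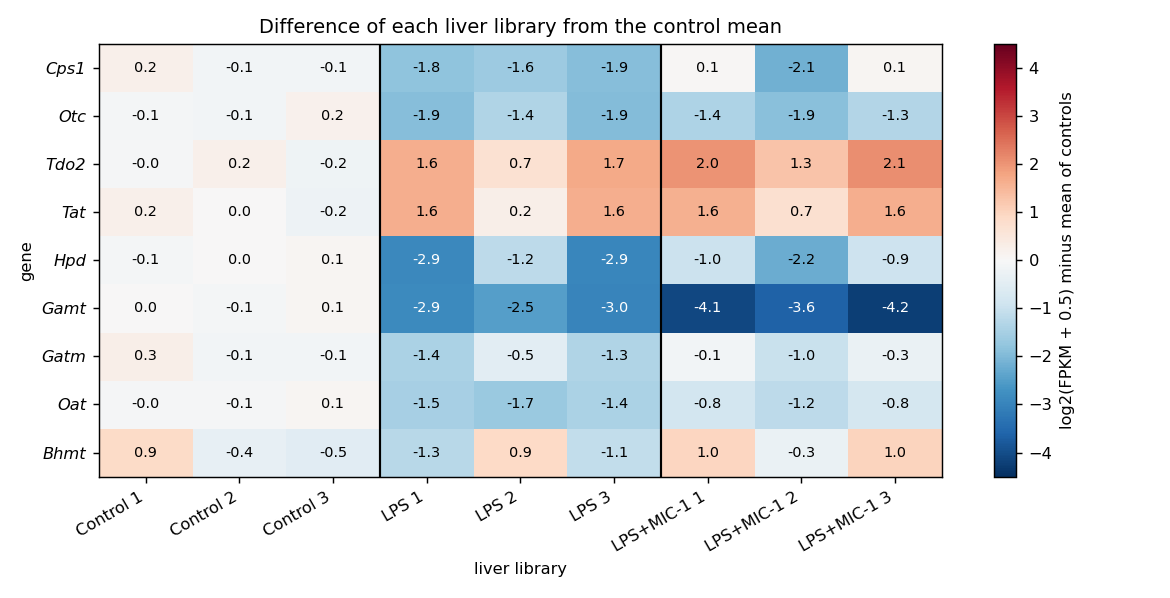
Difference of each of the 9 liver libraries (columns) from the control mean, in log2(FPKM + 0.5), for each gene (rows), with red for higher and blue for lower. In LPS and LPS+MIC-1, columns 1 and 3 of a group are nearly alike and column 2 differs, as for Cps1 in LPS+MIC-1, at 0.1, -2.1 and 0.1.

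Libraries 1 and 3 were the closest pair for each of the 9 genes in both injected groups, beside 69.8% of all tested genes in LPS and 67.7% in LPS+MIC-1. Over the 9 genes the median absolute log2 difference between libraries 1 and 3 was 0.09 in LPS and 0.04 in LPS+MIC-1, whereas between libraries 1 and 2 it was 0.93 and 0.85. In Control it was 0.30 between libraries 1 and 3, 0.21 between 1 and 2 and 0.16 between 2 and 3. The spread of the injected groups therefore lies almost wholly between library 2 and the other two. With libraries 1 and 3 averaged, 3 of 9 genes, Otc, Gamt and Oat, passed the test in LPS against Control. Of all 10152 genes tested in that fit 645 passed. Cps1 (-1.75), Hpd (-2.04), Gatm (-0.92) and Tdo2 (1.18) had a Log2FC of much the same size as before but missed the threshold with fewer samples.

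Set against Control, LPS+MIC-1 liver had 5 of the 9 genes changed, 2 upwards and 3 downwards, against 36.4% of all tested genes (20.1% upwards and 16.3% downwards). Of all genes that changed 55.2% rose, and 17.5% did with every library rescaled to the same sum. This comparison shares its controls with that of LPS and its other libraries with that of LPS+MIC-1 and LPS. Ranges did not overlap for 6 of 9, beside 54.6% of all tested genes, and the median Log2FC was -0.67, beside 0.15. The looser rule took 5 of the 9, beside 28.9% of all tested genes. Gamt was 15.9-fold lower than Control by group means (Log2FC -3.99, SE 0.21, limma adjusted p = 0.000173), and no tested gene had a smaller adjusted p. Otc (-1.54, SE 0.24, adjusted p = 0.00322) and Oat (-0.93, SE 0.18, adjusted p = 0.00687) also fell.

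Tdo2 rose to 3.59 times its control mean in LPS+MIC-1 (Log2FC 1.81, SE 0.33, adjusted p = 0.00581) and passed in all 19 alternatives. Tat rose by 1.32 (SE 0.42, adjusted p = 0.0392), but missed the threshold without Control library 2 (1.33) or 3 (1.198) and without LPS+MIC-1 library 1 (1.17) or 3 (1.16). With every library rescaled to the same sum it was 0.66 (adjusted p = 0.219), and with the close libraries averaged 1.17 (adjusted p = 0.139). Hpd had a Log2FC of -1.38 with an adjusted p of 0.0701, although all 3 libraries were below all controls, and without LPS library 2 it passed at the same Log2FC (adjusted p = 0.0171). Cps1 was at -0.67 (95% interval -1.89 to 0.55), and without LPS+MIC-1 library 2 its sign turned to 0.07. Gatm (-0.47, 95% interval -1.24 to 0.30) and Bhmt (0.57, -0.93 to 2.06) did not pass.

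The other genes of the same pathways were taken from lists of 97 genes, of which 91 passed the filter. After LPS, 34 of them (37.4%) changed, beside 34.7% of all tested genes, so the share was near the background. Of these 23 fell and 11 rose, beside 15.5% and 19.2% of all tested genes, and the median Log2FC of the 91 was -0.53, beside 0.15 over all tested genes. Leaving out 1 library moved that count to between 11, without LPS library 3, and 47, without LPS library 2. It was 23, 22 and 16 without Control library 2, Control library 3 and LPS library 1. The calls over all genes in these fits were 1409, 4969, 1909, 1935 and 1700 in the same order, beside 3520 with all libraries. The counts by list that follow include the 9 genes where they belong to a list, and are to be read against the same 34.7%. The share that changed was 23.1% in the list of methionine, betaine and sulfur, 25% in that of branched-chain amino acids, 28.6% among transcription regulators, 30% among transporters and 30.8% in the list of serine, glycine, threonine and alanine, all below the background.

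Of 11 genes of the urea cycle and ammonia handling, 4 fell and 2 rose. Beside Cps1 and Otc, Ass1 (argininosuccinate synthase, the third step of the cycle) fell by 1.69 on the log2 scale (SE 0.55) and Glul (glutamine synthetase) fell by 1.77 (SE 0.44). Arg1 (arginase, the last step, which releases urea) rose by 1.44 (SE 0.28), from 783 ± 170 to 2155 ± 601 FPKM, and Slc25a15 (the mitochondrial ornithine carrier) rose by 0.99 (SE 0.22). Ass1 rested in part on Control library 1, at 4362 FPKM beside 1527 and 1468 in the other two.

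Among 4 tested genes of creatine synthesis and ornithine use, Odc1 (ornithine decarboxylase, which makes putrescine) rose by 1.54 (SE 0.36) while Oat, Gamt and Gatm fell. In the list from tryptophan to kynurenine and NAD, 3 of 9 fell and 2 rose. With Tdo2, Kmo (kynurenine monooxygenase) rose by 0.96 (SE 0.17), whereas Kynu (kynureninase, -1.30, SE 0.27), Haao (3-hydroxyanthranilate dioxygenase, -1.78, SE 0.41) and Ido2 (indoleamine 2,3-dioxygenase 2, -1.44, SE 0.47) fell. Genes of the entry step (Tdo2 and Ido2) and of later steps (Kmo against Kynu and Haao) thus went both ways. All 5 genes that changed in the phenylalanine and tyrosine list of 8 fell, among them Hpd, Hgd (homogentisate dioxygenase, -1.44, SE 0.38), Pcbd1 (a dehydratase that recycles tetrahydrobiopterin, -1.01, SE 0.32) and Fah (the last enzyme of tyrosine breakdown, -0.76, SE 0.26).

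Around Bhmt, Mat1a (methionine adenosyltransferase, which makes the methyl donor used by Gamt) rose by 1.46 (SE 0.24), while Csad (cysteine sulfinate decarboxylase, of taurine synthesis, -1.69, SE 0.43) and Sardh (sarcosine dehydrogenase, -1.53, SE 0.32) fell. These were 3 of 13 in the list. The list of serine, glycine, threonine and alanine held 4 genes that rose and none that fell among 13. Sdsl (serine dehydratase-like) had the largest Log2FC of all listed genes, 3.84 (SE 0.32), from 16.1, 28.9 and 16.2 FPKM in Control to 301, 202 and 388 in LPS. The others were Shmt2 (mitochondrial serine hydroxymethyltransferase, 1.41, SE 0.30), Gldc (of the glycine cleavage system, 1.23, SE 0.34) and Gpt2 (alanine aminotransferase of mitochondria, 1.195, SE 0.26).

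In the lysine and proline list 3 of 5 fell, Prodh (proline dehydrogenase, -2.63, SE 0.48), Prodh2 (-2.29, SE 0.67) and Aldh4a1 (-1.42, SE 0.33). In histidine breakdown Uroc1 (-1.96, SE 0.45) and Amdhd1 (-1.26, SE 0.27) fell, 2 of 4. Of 16 branched-chain genes 3 fell, Hibadh (-1.41, SE 0.27), Ivd (-1.39, SE 0.34) and Mccc2 (-0.97, SE 0.24), and Dld, a subunit shared by several dehydrogenase complexes, rose by 0.92 (SE 0.24). Of 10 transporters 3 fell, Slc38a3 (a glutamine carrier, -2.01, SE 0.31), Slc6a6 (the taurine carrier, -1.35, SE 0.30) and Slc25a10 (-1.98, SE 0.43), the last being a mitochondrial dicarboxylate carrier rather than one of amino acids. Of 7 tested transcription regulators, Cebpb rose by 1.19 (SE 0.30) and Nr1i3 (the receptor CAR) fell by 2.61 (SE 0.83), Nr1i3 with 4.67 and 5.51 FPKM in LPS libraries 1 and 3 but 58.0 in library 2. No sign of a named pathway gene turned under the 19 alternatives. The call held in all 19 for Sdsl, Prodh and Slc38a3, and in the fewest for Pcbd1 (8), Ass1, Ido2 and Nr1i3 (9 each) and Fah (10).

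**Figure D4:**
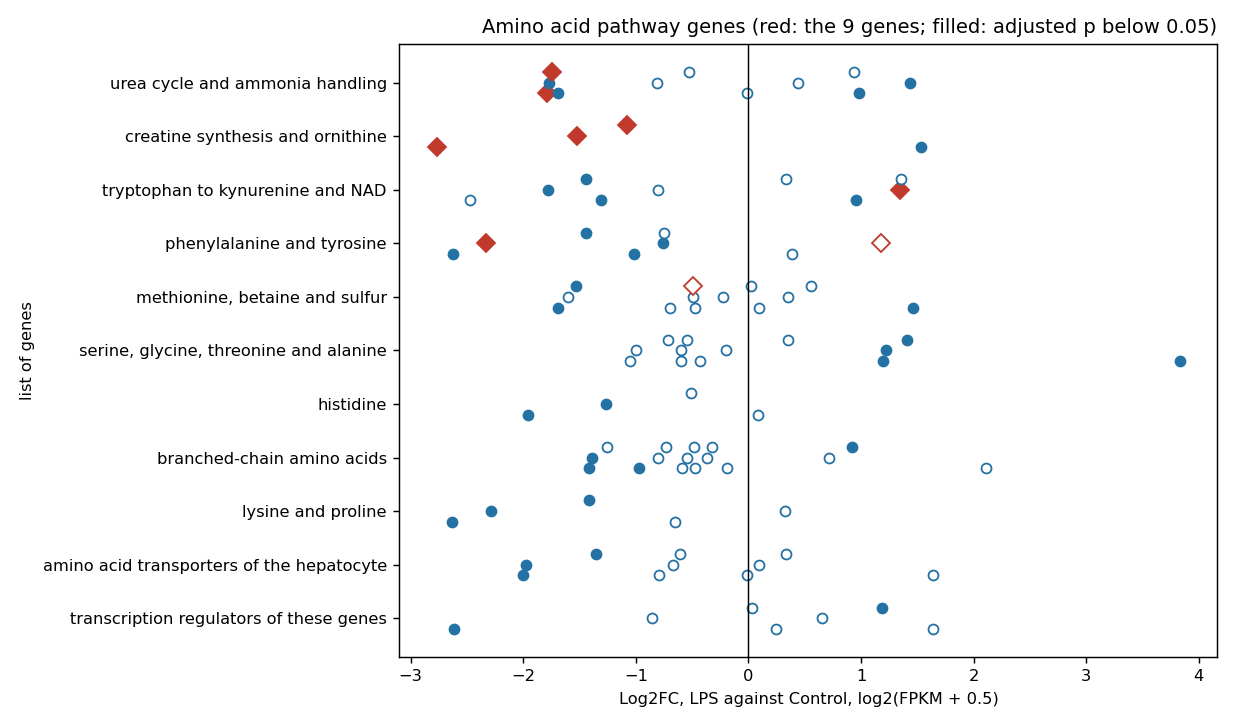
Log2FC of LPS against Control, on the log2(FPKM + 0.5) scale, for each tested gene of 11 pathway lists, with the 9 genes as red diamonds, the others as blue circles, and filled marks where the limma adjusted p was below 0.05. Filled marks lie mostly left of 0, except in the list of serine, glycine, threonine and alanine, where all 4 lie to the right.

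In LPS+MIC-1 against LPS, 0 of the 91 passed with limma, as did 0 of all tested genes. An unadjusted p below 0.05 was found for 7 of the 91, beside 364 of all 10147 tested genes (3.59%). The median Log2FC of the 91 was 0.43, beside -0.01 over all tested genes. Without library 2 of both groups, a choice made after the values were seen, 26 passed, beside 374 of all 10192 genes tested. In LPS+MIC-1 against Control, 25 of the 91 (27.5%) changed, 14 upwards and 11 downwards, which was below the 36.4% of all tested genes. That count was 8 without Control library 2, 10 without Control library 3 or LPS+MIC-1 library 3, and 11 without LPS+MIC-1 library 1. The calls over all genes in these fits were 2154, 2253, 2053 and 2159 in the same order, beside 3692 with all libraries.

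The 9 genes did not all follow a common profile. The mean of their z-scores in each library is a description over 9 libraries in which depth and library likeness are shared. It includes each gene it is set against. It correlated with Cps1 at 0.984, Gatm at 0.953, Hpd at 0.919, Oat at 0.840, Otc at 0.801 and Bhmt at 0.621. With Gamt it correlated at 0.454, with Tat at -0.387 and with Tdo2 at -0.405, so it stands mainly for Cps1 and the genes like it. Among the genes outside the lists that ran most closely with it were Mpzl2 (Pearson r = 0.983), Hamp (0.981), Pdk2 (0.979) and Hebp1 (0.975). Hamp, the gene of the iron hormone hepcidin, had 7315, 5854 and 5794 FPKM in Control, 1593, 1874 and 1692 in LPS, and 5722, 2008 and 5998 in LPS+MIC-1. It showed the split of Cps1, with library 2 of LPS+MIC-1 near the LPS level.

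The series also holds 9 libraries of RAW264.7 cells, a mouse macrophage line, whose table was normalized separately, so levels were not tested across tissues. The paper describes these cells as treated in culture with solvent, with LPS, or with LPS and a micromolar concentration of MIC-1. The gavage, the injection and the doses per kg given above apply to the liver only. Cps1, Otc, Tdo2, Tat, Hpd and Bhmt were at most 0.407 FPKM in every macrophage library. Gamt, Gatm and Oat were measurable there, and Gatm, at 59.4, 51.7 and 62.2 FPKM in Control, was listed far higher than in liver. Gatm read 12.9, 51.4 and 11.8 after LPS and 17.8, 23.0 and 18.5 with LPS and MIC-1. Gamt read 18.1, 21.0 and 16.9, then 11.8, 26.2 and 13.4, then 6.66, 4.94 and 4.74 in the same order, so that the LPS+MIC-1 libraries were the lowest there as in liver. Oat read 75.3, 60.0 and 73.5, then 31.1, 60.3 and 33.3, then 37.6, 46.9 and 36.6. Macrophage libraries are numbered by their place within the group, as in liver. LPS library 2 of the macrophages was within or above the control range for Gamt and Oat and just below it for Gatm. The other LPS libraries were below all controls for all 3 genes. The paper describes 2 LPS replicates in its macrophage analysis, whereas 3 are used here, and it does not say which they were.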

How the data were processed

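Reads from 9 liver and 9 RAW264.7 libraries were quantified by the authors with kallisto v0.45.0 on a RefSeq mm9 index, summarised with tximport and turned into FPKM with DESeq2 v1.20.0, and the deposited tables hold these FPKM values per library. Strand handling is not given in the sources used here. The 6 deposited tables of the authors' own comparisons (mean normalized count, fold change, p-values) were not used. The study's design text gives a MIC-1 concentration for the liver that belongs to cell culture, and the dose in the sample labels and methods was used.

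For liver, log2(FPKM + 0.5) of the 10147 genes with a mean above 1 FPKM was fitted with limma 3.58.1 (R 4.3.3, trended prior) over all 9 libraries, with Benjamini-Hochberg adjustment over all of them. No covariate was used. Replicates are libraries described as separate mice. Intervals are at 95%. Depth was estimated from the steps between low FPKM values, of which 84.0 to 86.8% came out whole within 0.1 read at an assumed fragment length of 180 bases, and covers counting error only. The genes, pathway lists, markers and motifs were chosen with earlier results of these data known. Named pathway genes are those called in LPS against Control, at most 4 per direction and list. Promoters are RefSeq windows. Gene positions are from GENCODE vM1. Markers Adgre1, Cd68, Ly6g and Hba-a1 were not analysed here, and some genes that the naming rules select are not reported here.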

Additional observations from a re-analysis of the deposited data

How the results depend on the processing

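Otc, Gamt and Oat kept their direction and passed the test under all 19 alternatives in LPS against Control and in LPS+MIC-1 against Control, and so did Tdo2 in the second. Leaving out 1 library gave 1409 to 4969 called genes in LPS against Control (3520 with all libraries), 0 to 37 in LPS+MIC-1 against LPS (0) and 2053 to 4589 in LPS+MIC-1 against Control (3692), with 3 to 8, 0 to 0 and 4 to 6 of the 9 genes, and 11 to 47, 0 to 1 and 8 to 29 of the 91 other pathway genes. With library weights, which count distant libraries less, the calls over all genes were 7410, 3063 and 7473, the 91 gave 74, 64 and 63, and 7 of the 9 genes passed in LPS+MIC-1 against LPS. Averaging the close libraries 1 and 3, added after seeing the data, gave 645 and 1477 genes against Control, with 3 of the 9 genes in LPS, and 3 and 6 of the 91. Without library 2 of both injected groups, also added, LPS+MIC-1 against LPS had 374 genes, 4 of the 9 and 26 of the 91, and the 91 gave 61 and 40 against Control. That comparison had 1 gene with a pseudocount of 1, 2 without a filter, 1 without the trend, and 100, with 1 of the 9 and 3 of the 91, at an unadjusted p below 0.05 and a Log2FC beyond 1.

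Rescaling every library to the same sum moved the median Log2FC of all genes from 0.15 to -0.18 in LPS against Control, from -0.01 to -0.26 in LPS+MIC-1 against LPS and from 0.15 to -0.43 in LPS+MIC-1 against Control. The share of calls that rose went from 55.3% to 31.0% in LPS and from 55.2% to 17.5% in LPS+MIC-1, and the 91 gave 55 and 40. The directions of the 7 called genes in LPS did not turn. Signs that turned belonged to values that did not pass the test. In LPS+MIC-1 against LPS they were Otc with the same sum (-0.086) and Tat with weights (-0.017), with the same sum (-0.15), without library 2 of both groups (-0.023), without LPS library 2 (-0.32) and without LPS+MIC-1 library 1 (-0.0028) or 3 (-0.013), over a leave-one-out range of -0.32 to 0.44. In LPS+MIC-1 against Control they were Cps1 with weights (0.092) and without LPS+MIC-1 library 2 (0.070, alone or with LPS library 2, over a range of -1.04 to 0.070) and Bhmt with the same sum (-0.091). The cause was not tested. No paired analysis was possible because the columns of the table carry no replicate number. Depth limits Gatm above all and was lower in every Control library than in every injected one, and the 3 libraries of a group limit every comparison.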
